A study of Homo sapiens with 12 samples.

Results

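The genes described here are those of cholesterol and fatty acid synthesis, a module of 33 genes measured in EA.hy926 cells. Members were found by gene symbol in the array annotation, and each was represented by its brightest probe, the one with the highest mean over the 12 arrays. They comprise 18 enzymes of the sterol arm, 5 regulators of the sterol response, 2 sterol transport proteins and 8 genes of the fatty acid arm, out of 15249 genes tested in all. SC4MOL and SC5DL are the array's names for MSMO1 and SC5D. Testing needed a probe detected (p under 0.05 over negative controls) on 3 or more arrays, and 32 of the 33 members passed. The exception was STARD4, a carrier of cholesterol between membranes, whose probe was detected on 0 of 12 arrays.

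EA.hy926 is a hybrid line made from human umbilical vein endothelial cells that, per the labels, lacks estrogen receptor alpha. Receptor cells had been stably transfected with the pCMV3-ERalpha plasmid, and control cells with the empty backbone pCDNA 3.1. Both were kept under puromycin after selection of single colonies, and the labels do not say which colonies a replicate number stands for. The 4 groups were receptor cells with 10 nM estradiol, receptor cells with ethanol vehicle, control cells with 10 nM estradiol and control cells with ethanol vehicle. All received 16 h of treatment after 24 h without serum, and each group has 3 arrays that the study calls biological replicates; how the replicates were grown is not said, so p-values measure the spread between these arrays. RNA was measured in bulk, so fewer cells with a transcript and less of it per cell cannot be told apart.

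Cells make cholesterol from acetyl-CoA through mevalonate, the isoprenoids, squalene and lanosterol, and make long fatty acids from the same acetyl-CoA through malonyl-CoA. When membrane sterol falls, SCAP escorts the SREBP transcription factors, encoded by SREBF1 and SREBF2, to the Golgi, where they are cut free to enter the nucleus. INSIG1 and INSIG2 hold SCAP in the endoplasmic reticulum when sterol is plentiful, and INSIG1 is itself an SREBP target. SREBPs act with NF-Y and Sp1, and serum-free medium, which takes away lipoprotein cholesterol, is a usual way to engage them.

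Promoters of 29 of the 33 members were found in the RefSeq table (build GRCh38.p14), each running 250 bases before to 50 bases after the gene's start. The letters CCAAT (the NF-Y box), GGGCGG (the Sp1 box), TCACNCCAC (a sterol regulatory element core) and GGTCA followed after any 3 bases by TGACC (the estrogen response element) were searched on both strands, and 0 of the 112 matches in members overlapped a match of another motif. The following show the 250 bases before the start of HMGCS1 (chr5:43313413-43313662 on the reverse strand), FDPS (chr1:155308616-155308865 on the forward strand) and INSIG1 (chr7:155297628-155297877 on the forward strand), which were higher in receptor cells under both treatments. FADS1, also higher under both treatments, had a promoter with the Sp1 box but with no CCAAT match, and is not shown. ACAT2 and SQLE, higher under both as well, were not among the promoters found. SREBF2 (chr22:41832855-41833104 on the forward strand), not called in any comparison of groups, is shown because it held the single TCACNCCAC match among members. Capitals mark CCAAT, its reverse complement ATTGG, and the TCACNCCAC match.
HMGCS1: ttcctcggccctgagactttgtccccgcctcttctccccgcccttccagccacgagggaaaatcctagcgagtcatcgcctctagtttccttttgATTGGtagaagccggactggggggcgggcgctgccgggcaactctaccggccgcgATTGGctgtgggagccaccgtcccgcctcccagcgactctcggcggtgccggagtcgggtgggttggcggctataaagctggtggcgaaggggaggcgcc
FDPS: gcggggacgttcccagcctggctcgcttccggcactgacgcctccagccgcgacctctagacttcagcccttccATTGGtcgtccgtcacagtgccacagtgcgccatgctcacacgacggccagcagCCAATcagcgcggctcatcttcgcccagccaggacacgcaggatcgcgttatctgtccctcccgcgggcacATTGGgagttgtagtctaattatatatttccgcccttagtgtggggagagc
INSIG1: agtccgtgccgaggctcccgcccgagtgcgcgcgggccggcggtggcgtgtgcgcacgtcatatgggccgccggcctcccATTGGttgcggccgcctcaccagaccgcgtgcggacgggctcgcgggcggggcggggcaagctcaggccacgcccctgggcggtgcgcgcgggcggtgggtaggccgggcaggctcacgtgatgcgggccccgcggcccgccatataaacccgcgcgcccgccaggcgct
SREBF2: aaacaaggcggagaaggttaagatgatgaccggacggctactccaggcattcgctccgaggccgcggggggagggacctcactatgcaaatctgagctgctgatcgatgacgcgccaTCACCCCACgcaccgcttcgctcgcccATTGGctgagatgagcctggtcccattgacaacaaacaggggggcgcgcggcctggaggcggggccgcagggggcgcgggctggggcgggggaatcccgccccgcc

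The NF-Y box was present in 12 of 15 promoters of the sterol arm (80%), in 2 of 7 of the fatty acid arm (28.6%) and in 35.7% of all 27305 promoters of this length. The sterol enzymes without a promoter found were ACAT2, FDFT1 and SQLE, each called higher in receptor cells under estradiol. The sterol arm shares therefore do not cover them. The Sp1 box was present in 14 of 15 sterol arm promoters (93.3%), 6 of 7 fatty acid arm promoters (85.7%) and 44.6% of all promoters. TCACNCCAC was found in 1 of 29 member promoters (3.45%) and in 1.15% of all, and the full estrogen response element in 0 of 29 and in 0.0659% of all. These counts describe letters in a short window and do not show binding.

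Between 39.0% and 41.7% of the probes of an array were detected. Receptor and control cells separated on the first principal component (44.8% of the variance), and replicate arrays spread more in receptor cells: the SD of a typical (median) gene was 0.197 under estradiol and 0.195 under vehicle on the log2 scale, against 0.111 and 0.117 in control cells. The ESR1 probe was detected on 0 of 12 arrays (detection p from 0.103 to 0.681), so the arrays give no check of the receptor itself; the labels report it by western blot. Of 12 endothelial markers 11 were detected, all but CLDN5, with a log2 of the summed level of 13.8 to 14.3 in the receptor groups and 14.1 to 14.4 in the control groups. Of 8 epithelial markers 7 were detected, all but CDH1, with sums of 12.2 to 12.9 in receptor cells under either treatment, against 11.9 to 12 under estradiol and 11.8 to 11.9 under vehicle in control cells. Of 9 mesenchymal markers 3 were detected, with sums of 11.6 to 11.9 in the receptor groups and 11.4 to 11.6 in the control groups, and of 6 leukocyte markers 2, with sums of 9.53 to 10.1 in the receptor groups and 10.1 to 10.4 in the control groups; COL1A1, COL3A1, DES, PTPRC and CD3E were among those not detected. Of 8 mitosis genes 7 were tested (CDK1 was not matched to a probe), with sums of 12.2 to 12.3 under estradiol and 12 to 12.4 under vehicle in receptor cells, against 11.7 to 11.8 in control cells under either treatment. KRT8, KRT18, KRT80, TOP2A, BUB1 and TTK were called higher in receptor cells under both treatments. The epithelial and mitosis sums therefore differ between the lines in the same direction as most sterol genes. The endothelial markers had median log2 folds, receptor over control, of -0.23 under estradiol and -0.37 under vehicle, with 9 of 11 negative under each, and ENG was called lower under vehicle (-0.75). TAGLN, of the mesenchymal list, was called lower under both treatments (-0.52 and -0.58). Where these markers move with the line, their part in the results was not tested.

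**Figure D1:**
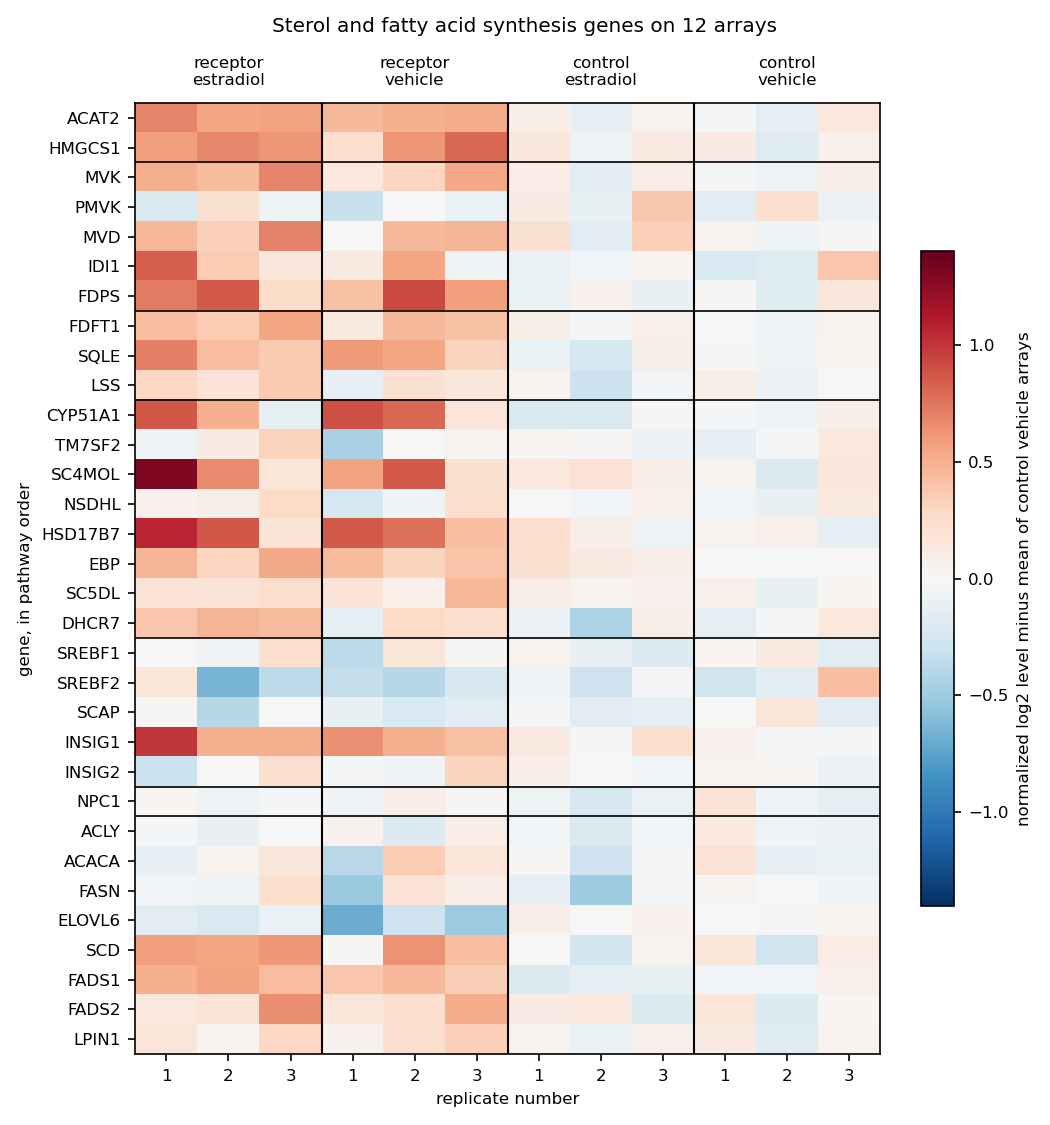
Normalized log2 level of each of the 32 tested genes (rows, in pathway order) on each of the 12 arrays (columns, by group and replicate number), minus the gene's mean over the 3 control vehicle arrays; red is higher and blue is lower. The sterol genes from ACAT2 to DHCR7 are mostly red on the receptor arrays, with FDPS, CYP51A1, SC4MOL and HSD17B7 the darkest of them. INSIG1, of the regulators, is also red there. The control estradiol arrays are mostly pale, though FASN and DHCR7 are blue in replicate 2.

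Several enzymes of sterol synthesis rose in receptor cells relative to control cells, with and without hormone. Under estradiol 7 of the 18 sterol enzymes rose (ACAT2, HMGCS1, MVK, FDPS, FDFT1, SQLE and DHCR7) and 0 fell, and under vehicle 5 rose (ACAT2, HMGCS1, FDPS, SQLE and EBP) and 0 fell. Their median log2 fold, receptor over control, was 0.51 under estradiol and 0.33 under vehicle, where the median of all genes was -0.01 under each. Of the 18 enzymes, 17 had a positive fold under estradiol and 15 under vehicle. Genes count as called, and are said to rise or fall, where limma's adjusted p over all 15249 genes is under 0.05. By that rule 3.24% of all genes rose and 4.36% fell under estradiol, and 3.74% rose and 4.79% fell under vehicle. All 3 receptor arrays lay above all 3 control arrays for 12 sterol enzymes under estradiol, where 12.2% of all genes did so, and for 10 under vehicle, where 13.5% did. Over all 32 members, 10 were called under estradiol and 8 under vehicle, against 7.60% and 8.54% of all genes in either direction, and 17 and 14 had an unadjusted p under 0.05, against 23.1% and 25.4% of all genes. The comparison holds every difference between the transfected lines, and the receptor cannot be told apart from the others.

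Single arrays decided many of these calls. Leaving out control vehicle replicate 1 or 2 left 0 members called by limma under vehicle (12 and 11 members had an unadjusted p under 0.05), while the share of all genes called, 8.54% with every array, was 3.86% and 3.14%. Leaving out control vehicle replicate 3 or receptor vehicle replicate 2 left 2 members, with 5.36% and 4.24% of all genes called. Without control estradiol replicate 1, 2 or 3 the count under vehicle was 5, with 6.60% to 6.70% of all genes. Under estradiol, where 7.60% of all genes were called with every array, the member count was 4 and 5 without receptor estradiol replicate 1 and 2, with 7.10% and 4.22% of all genes. It was 2, 2 and 4 without control estradiol replicates 1, 2 and 3, with 3.79%, 3.82% and 3.95%, and was 6 without control vehicle replicate 1, with 6.13%. ACAT2 and FADS1 kept their call under estradiol in all 24 alternatives run.

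At the head of the pathway, ACAT2 and HMGCS1 join acetyl-CoA units into the precursor of mevalonate. ACAT2, the cytosolic acetoacetyl-CoA thiolase, had levels of 10.74, 10.61 and 10.62 under estradiol and 10.52, 10.56 and 10.58 under vehicle in receptor cells, against 10.15, 9.95 and 10.11 under estradiol and 10.04, 9.92 and 10.21 under vehicle in control cells. The 6 receptor values lay in a narrow band above all 6 control values. The log2 fold was 0.59 ± 0.11 (SE, adjusted p = 0.00576) under estradiol and 0.50 ± 0.11 (SE, adjusted p = 0.0146) under vehicle, that is 1.5-fold and 1.41-fold. HMGCS1, the HMG-CoA synthase, had levels of 9.64, 9.72 and 9.66 under estradiol and 9.29, 9.67 and 9.86 under vehicle in receptor cells, against 9.21, 8.98 and 9.18 under estradiol and 9.16, 8.87 and 9.12 under vehicle in control cells. Receptor vehicle replicate 1 was the lowest receptor value but was still above every control value. The log2 fold of HMGCS1 was 0.55 ± 0.15 (SE, adjusted p = 0.0368) under estradiol and 0.55 ± 0.15 (SE, adjusted p = 0.0339) under vehicle.

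Of the 5 enzymes from mevalonate to farnesyl diphosphate, FDPS rose under both treatments and MVK under estradiol. FDPS, the synthase of farnesyl diphosphate, from which both sterols and protein prenyl groups derive, had levels of 7.90, 8.04 and 7.43 under estradiol and 7.58, 8.10 and 7.75 under vehicle in receptor cells, against 7.08, 7.23 and 7.07 under estradiol and 7.19, 7.0 and 7.33 under vehicle in control cells. All receptor values exceeded all control values, with replicate 2 highest in receptor cells under each treatment. FDPS had log2 folds of 0.66 ± 0.17 (SE, adjusted p = 0.0337) under estradiol and 0.64 ± 0.17 (SE, adjusted p = 0.0376) under vehicle. MVK, mevalonate kinase, had levels of 7.30, 7.23 and 7.46 under estradiol and 6.93, 7.09 and 7.33 under vehicle in receptor cells, against 6.89, 6.64 and 6.89 under estradiol and 6.76, 6.72 and 6.87 under vehicle in control cells. The receptor and control arrays did not overlap under either treatment, and receptor vehicle replicate 1 lay closest to the control values. Its log2 fold was 0.52 ± 0.13 (SE, adjusted p = 0.0256) under estradiol and 0.33 ± 0.13 (SE, adjusted p = 0.125) under vehicle, where it was not called. MVD, the decarboxylase, and IDI1, the isomerase, had log2 folds of 0.36 and 0.49 under estradiol and 0.31 and 0.20 under vehicle, none called (smallest adjusted p = 0.181 in limma, for IDI1 under estradiol). PMVK, the second kinase of the pathway, had -0.14 and -0.13, the only negative fold of the sterol arm under estradiol.

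Squalene is made by FDFT1, oxidised by SQLE and closed into lanosterol by LSS. SQLE, squalene epoxidase, a controlled step of the branch, had levels of 10.77, 10.49 and 10.43 under estradiol and 10.66, 10.62 and 10.38 under vehicle in receptor cells, against 9.97, 9.82 and 10.15 under estradiol and 10.08, 10.00 and 10.11 under vehicle in control cells. Every receptor array stood above every control array. SQLE had log2 folds of 0.59 ± 0.13 (SE, adjusted p = 0.0153) under estradiol and 0.49 ± 0.13 (SE, adjusted p = 0.0354) under vehicle. FDFT1, squalene synthase, which commits farnesyl diphosphate to sterols, had levels of 12.17, 12.10 and 12.29 under estradiol and 11.87, 12.19 and 12.15 under vehicle in receptor cells, against 11.82, 11.73 and 11.81 under estradiol and 11.75, 11.68 and 11.79 under vehicle in control cells. The groups did not overlap under either treatment. The fold was 0.40 ± 0.11 (SE, adjusted p = 0.0442) under estradiol, and 0.33 ± 0.11 (SE, adjusted p = 0.0831) under vehicle, not called; a second FDFT1 probe gave 0.70 and 0.86. LSS had log2 folds of 0.38 and 0.09, not called under either treatment (adjusted p = 0.0940 and 0.718 in limma), though its receptor and control arrays did not overlap under estradiol.

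Between lanosterol and cholesterol, DHCR7 rose under estradiol and EBP under vehicle. DHCR7, the reductase of the last step, had levels of 9.12, 9.20 and 9.18 under estradiol and 8.61, 9.02 and 8.96 under vehicle in receptor cells, against 8.64, 8.30 and 8.82 under estradiol and 8.61, 8.70 and 8.88 under vehicle in control cells. Under estradiol the receptor arrays lay above the control arrays, while under vehicle the groups overlapped and receptor vehicle replicate 1 was the lowest of the 6 values. The log2 fold of DHCR7 was 0.58 ± 0.15 (SE, adjusted p = 0.0328) under estradiol and 0.13 ± 0.15 (SE, adjusted p = 0.634) under vehicle. EBP, the sterol isomerase, had levels of 9.22, 9.04 and 9.28 under estradiol and 9.19, 9.06 and 9.14 under vehicle in receptor cells, against 8.96, 8.87 and 8.84 under estradiol and 8.74, 8.75 and 8.74 under vehicle in control cells. The control vehicle arrays were almost identical, and all receptor arrays were higher. EBP had 0.39 ± 0.10 (SE, adjusted p = 0.0317) under vehicle and 0.29 ± 0.10 (SE, adjusted p = 0.104) under estradiol, where it was not called. HSD17B7, CYP51A1 and SC4MOL, which strip methyl groups from lanosterol together with NSDHL, had folds as large as the called genes, 0.62, 0.54 and 0.57 under estradiol and 0.69, 0.63 and 0.54 under vehicle, but none was called (adjusted p = 0.0520 for HSD17B7 under vehicle was the smallest, in limma). Their SEs, 0.20, 0.23 and 0.24, were above those of DHCR7 (0.15) and EBP (0.10). NSDHL, TM7SF2 (a sterol reductase) and SC5DL (a sterol desaturase) lay between -0.14 and 0.24 in both comparisons, none called.

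**Figure D2:**
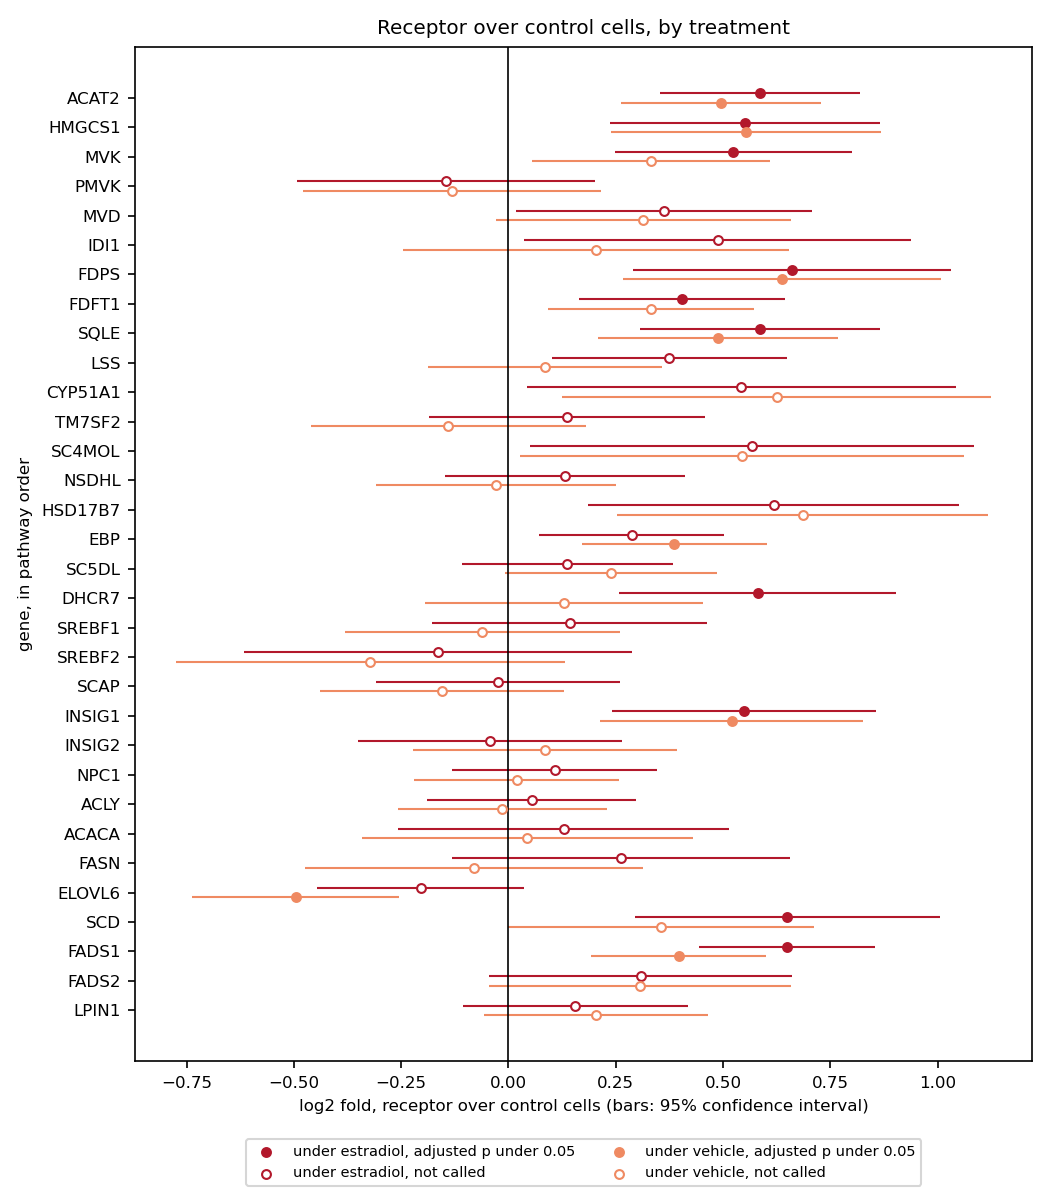
Log2 fold, receptor over control cells, of each of the 32 tested genes under estradiol (dark red) and under vehicle (orange), with 95% confidence intervals from limma; filled points have an adjusted p under 0.05. The filled points from ACAT2 to DHCR7 lie between 0.39 and 0.66, and the single filled point left of 0 is ELOVL6 under vehicle, at -0.50.

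Of the 5 regulators, INSIG1 rose under both treatments and the other 4 were not called. INSIG1, a retention protein of SCAP, had levels of 11.01, 10.51 and 10.50 under estradiol and 10.65, 10.51 and 10.42 under vehicle in receptor cells. In control cells its levels were 10.15, 9.98 and 10.25 under estradiol and 10.07, 9.98 and 9.98 under vehicle. All receptor arrays exceeded all control arrays, with receptor estradiol replicate 1 the highest. INSIG1 had log2 folds of 0.55 ± 0.14 (SE, adjusted p = 0.0337) under estradiol and 0.52 ± 0.14 (SE, adjusted p = 0.0405) under vehicle, and its second probe gave 1.15 and 1.10. SREBF2, the gene of SREBP2, which mainly serves sterol genes, had levels of 5.49, 4.67 and 4.96 under estradiol and 4.98, 4.92 and 5.10 under vehicle in receptor cells, against 5.27, 5.03 and 5.30 under estradiol and 5.04, 5.18 and 5.74 under vehicle in control cells. These values are near the level where detection begins, with detection on 11 of 12 arrays, and the groups overlap. SREBF2 had -0.16 ± 0.21 (SE, adjusted p = 0.700) under estradiol and -0.32 ± 0.21 (SE, adjusted p = 0.363) under vehicle.

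SREBF1, the gene of SREBP1, which mainly serves fatty acid genes, had levels of 6.77, 6.72 and 7.01 under estradiol and 6.40, 6.94 and 6.79 under vehicle in receptor cells, against 6.82, 6.67 and 6.58 under estradiol and 6.79, 6.90 and 6.62 under vehicle in control cells. SCAP, the escort of both SREBPs, had levels of 10.08, 9.66 and 10.06 under estradiol and 9.95, 9.85 and 9.92 under vehicle in receptor cells, against 10.04, 9.91 and 9.93 under estradiol and 10.05, 10.23 and 9.90 under vehicle in control cells. INSIG2, the second retention protein, had levels of 7.76, 8.07 and 8.29 under estradiol and 8.05, 8.02 and 8.38 under vehicle in receptor cells, against 8.16, 8.05 and 8.03 under estradiol and 8.11, 8.10 and 7.98 under vehicle in control cells. For each of these genes the receptor and control arrays overlapped under both treatments. Their log2 folds ran from -0.04 to 0.14 under estradiol and from -0.16 to 0.08 under vehicle, with the smallest adjusted p of the 3 at 0.495 in limma (SCAP under vehicle). The RNA of the SREBP genes says nothing of how much protein was cut and moved to the nucleus, which arrays do not measure. NPC1, which lets cholesterol out of lysosomes, had 0.11 under estradiol and 0.02 under vehicle, not called.

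The fatty acid arm was divided. The desaturases FADS1 and SCD rose, FADS1 under both treatments and SCD under estradiol, ELOVL6 fell under vehicle, and the enzymes that build palmitate were not called. Of 8 genes, 2 rose and 0 fell under estradiol, and 1 rose and 1 fell under vehicle, with median log2 folds of 0.21 and 0.12. FADS1, a desaturase of polyunsaturated fatty acids, had levels of 10.60, 10.67 and 10.54 under estradiol and 10.49, 10.56 and 10.45 under vehicle in receptor cells, against 9.90, 9.97 and 10.00 under estradiol and 10.07, 10.07 and 10.18 under vehicle in control cells. The 6 receptor values lay above the 6 control values, and the control estradiol arrays were the lowest. The log2 fold was 0.65 ± 0.09 (SE, adjusted p = 0.00121) under estradiol, a 1.57-fold difference, and 0.40 ± 0.09 (SE, adjusted p = 0.0226) under vehicle. SCD, which puts the first double bond into saturated fatty acids, had levels of 11.44, 11.41 and 11.47 under estradiol and 10.88, 11.49 and 11.29 under vehicle in receptor cells, against 10.87, 10.59 and 10.91 under estradiol and 11.03, 10.59 and 10.97 under vehicle in control cells. Under estradiol the groups did not overlap; under vehicle receptor replicate 1 fell among the control arrays. SCD had 0.65 ± 0.16 (SE, adjusted p = 0.0307) under estradiol and 0.36 ± 0.16 (SE, adjusted p = 0.196) under vehicle, not called.

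ELOVL6, the elongase that lengthens palmitate, had levels of 5.48, 5.41 and 5.54 under estradiol and 4.94, 5.34 and 5.13 under vehicle in receptor cells, against 5.72, 5.63 and 5.69 under estradiol and 5.62, 5.61 and 5.67 under vehicle in control cells. Receptor arrays were the lower ones throughout, most of all receptor vehicle replicate 1, and ELOVL6 was the only member with all receptor arrays below all control arrays (15.1% of all genes under estradiol and 16.5% under vehicle). ELOVL6 had -0.50 ± 0.11 (SE, adjusted p = 0.0170) under vehicle, 1.41-fold lower in receptor cells, and -0.20 ± 0.11 (SE, adjusted p = 0.298) under estradiol, not called. The call was lost in the authors' normalized table (-0.16, adjusted p = 0.0569 in limma), with no background correction (-0.16, adjusted p = 0.0598), with only the groups compared (adjusted p = 0.0628) and without any 1 of the control vehicle arrays, and over all alternatives the fold ran from -0.60 to -0.16. A second ELOVL6 probe gave 0.01 under estradiol and -0.41 under vehicle. FASN, the fatty acid synthase, ACACA, the acetyl-CoA carboxylase, and ACLY, which supplies cytosolic acetyl-CoA, had 0.26, 0.13 and 0.05 under estradiol and -0.08, 0.04 and -0.01 under vehicle. FADS2, the partner desaturase of FADS1, had 0.31 and 0.31, with no overlap between the groups under either treatment but adjusted p = 0.283 and 0.259 in limma. LPIN1, a phosphatidate phosphatase, had 0.16 and 0.20 (adjusted p = 0.486 and 0.314).

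The receptor comparisons under estradiol and under vehicle use different arrays, but they are not independent: receptor arrays of the same number deviated together (correlations of 0.76, 0.39 and 0.67 across genes), and one fit gives the spread for both. ACAT2, HMGCS1, FDPS, SQLE, INSIG1 and FADS1 were called higher in both, which is 60% of the 10 members called under estradiol and 75% of the 8 called under vehicle. Over all genes, 749 were called in the same direction in both, 64.6% of the estradiol calls and 57.5% of the vehicle calls. The median of the 18 sterol genes on an array, relative to the mean of the control vehicle arrays, was 0.49, 0.39 and 0.34 in receptor cells under estradiol and 0.16, 0.45 and 0.36 under vehicle. It was 0.09, -0.06 and 0.07 in control cells under estradiol and 0.00, -0.07 and 0.08 under vehicle. The 6 receptor arrays therefore all lay above the 6 control arrays, with receptor vehicle replicate 1 lowest. The medians of the 8 fatty acid genes were 0.07, 0.04 and 0.27 under estradiol and 0.04, 0.23 and 0.25 under vehicle in receptor cells, against 0.01, -0.17 and -0.02 under estradiol and 0.13, -0.08 and 0.03 under vehicle in control cells, and these overlapped.

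**Figure D3:**
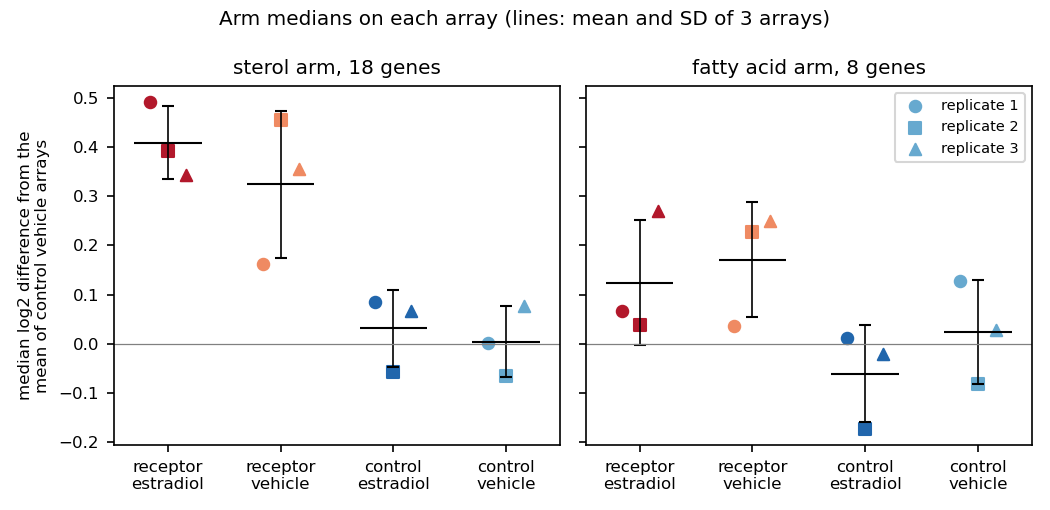
Median log2 difference from the mean of the control vehicle arrays, over the 18 sterol genes (left) and the 8 fatty acid genes (right), on each array; symbols mark the replicate number, and lines the mean and SD of 3 arrays. In the sterol panel the receptor arrays run from 0.16 to 0.49 and the control arrays from -0.07 to 0.09, while in the fatty acid panel the groups overlap.

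Adding estradiol to receptor cells gave no called change in any of the 32 members, and 11 of 15249 genes were called (0.0721%). At an unadjusted p under 0.05 in limma there was 1 member, ELOVL6, against 527 genes (3.46%). ELOVL6 had a log2 fold of 0.34 ± 0.11 (SE), with an adjusted p of 0.9995 in limma, and its values given above do not overlap between estradiol and vehicle. ACAT2 and DHCR7 likewise had all receptor estradiol arrays above all receptor vehicle arrays, which makes 3 of 32 members, where 2.87% of all genes did so. The median log2 fold, estradiol over vehicle, was 0.11 for the sterol arm and 0.06 for the fatty acid arm. In receptor cells the estradiol and vehicle arrays of a number deviated together, with correlations of 0.76, 0.39 and 0.67 across genes, so the replicate number was also fitted as a block within each line. That fit called 35 genes (0.230%) and 0 members; MVK, CYP51A1, TM7SF2, DHCR7 and ELOVL6 had an unadjusted p under 0.05, against 8.03% of all genes, and the smallest adjusted p was 0.417, for ELOVL6. The log2 fold, estradiol over vehicle, was 0.31 for DHCR7 and -0.21 for CYP51A1.

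The differences within a number were unequal. In receptor cells, estradiol minus vehicle had a sterol arm median of 0.31 in replicate 1, 0.02 in replicate 2 and 0.05 in replicate 3, with 16, 9 and 12 of the 18 genes above 0, and the median of all genes lay between -0.01 and 0.00. In replicate 1 SC4MOL and IDI1 had the largest differences, 0.74 and 0.71, and in replicate 2 they had -0.20 and -0.20. The fatty acid arm had medians of 0.20, -0.06 and 0.11. MVK (0.37, 0.14 and 0.13), DHCR7 (0.52, 0.19 and 0.21), TM7SF2 (0.38, 0.12 and 0.28) and ELOVL6 (0.54, 0.07 and 0.41) were above 0 in every number, as were ACAT2, PMVK, NSDHL and FADS1. CYP51A1 was below 0 in every number (-0.03, -0.31 and -0.30). That is 8 of 32 members above 0 (25%) and 1 below (3.13%), where 13.2% of all genes were above and 14.5% below in all 3 numbers.

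**Figure D4:**
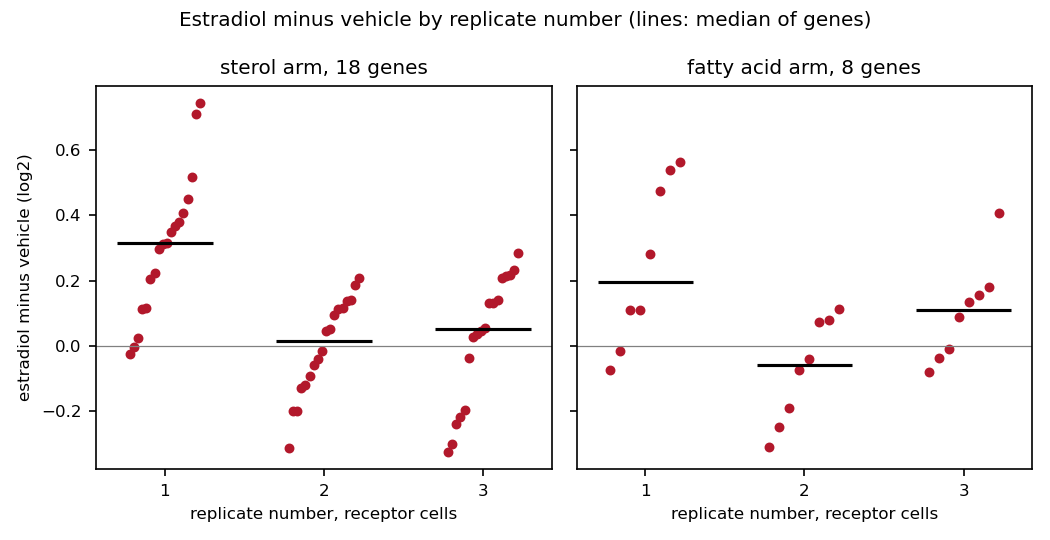
Estradiol minus vehicle in receptor cells on the log2 scale, for each replicate number (horizontal axis); each point is a gene of the sterol arm (left, 18 genes) or the fatty acid arm (right, 8 genes), and the line is their median. In the sterol panel the median is 0.31 in replicate 1 and 0.02 and 0.05 in the other numbers.

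In control cells estradiol called 0 of the 32 members and 0 of 15249 genes in limma; 0 members and 351 genes (2.30%) had an unadjusted p under 0.05. The sterol arm had a median log2 fold of 0.02 and the fatty acid arm of -0.08. With the replicate block 0 members had an unadjusted p under 0.05, but the numbers did not pair the control arrays (correlations of 0.08, 0.03 and 0.11). The estradiol response of receptor cells minus that of control cells was called in 5 genes (0.0328%) and 0 members, with 0 members and 437 genes (2.87%) at an unadjusted p under 0.05 in limma. DHCR7 had the largest such difference among members, 0.45 on the log2 scale, and with the block its unadjusted p was 0.0191 and its adjusted p 0.580. A second DHCR7 probe of almost the same level (8.835, against 8.837 for the probe used, as means of 12 arrays) gave 0.14 for this difference and 0.18 for estradiol over vehicle in receptor cells.

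Receptor arrays also differed by replicate number. A moderated F-test of number within receptor cells, over both treatments, called 2822 of 15249 genes (18.5%) and 2 members, CYP51A1 and HSD17B7; in control cells it called 0 genes and 0 members, with 1110 genes and 1 member (SCD) at an unadjusted p under 0.05. CYP51A1, the lanosterol demethylase, had levels of 5.94, 5.57 and 4.94 under estradiol and 5.97, 5.88 and 5.24 under vehicle in receptor cells, against 4.86, 4.86 and 5.09 under estradiol and 5.05, 5.01 and 5.15 under vehicle in control cells. Receptor replicate 3 of each treatment was lowest and, under estradiol, lay among the control values. The F-test over the 3 numbers gave CYP51A1 an adjusted p of 0.0114 in limma, and replicate 3 minus replicate 1, not tested on its own, was -0.86 over both treatments. HSD17B7, a keto reductase of the demethylation step, had levels of 9.36, 9.16 and 8.48 under estradiol and 9.16, 9.07 and 8.72 under vehicle in receptor cells, against 8.54, 8.38 and 8.23 under estradiol and 8.35, 8.37 and 8.17 under vehicle in control cells. Replicate 3 was again lowest in receptor cells, at -0.66 against replicate 1 (adjusted p of the F-test = 0.0338 in limma). SC4MOL was also lowest in receptor replicate 3, which minus replicate 1 gave -0.75 (adjusted p of the F-test = 0.0840), not called. The authors' normalized table gave 12 members by the same test, where 30.3% of all genes were called, and testing without the detection filter gave 1 (CYP51A1), where 6.01% were. The labels do not say what the numbers stand for, so clone, culture or day cannot be told apart.

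IDI1 lies on chromosome 10 among genes that were lower in receptor cells. The running median of 51 genes around it was taken relative to the mean of the control arrays of both treatments. It was -0.32, -0.29 and -0.22 in receptor cells under estradiol and -0.39, -0.25 and -0.20 under vehicle. In control cells it ran from -0.05 to 0.07. After subtraction of such medians, IDI1 had a log2 fold of 0.78 under estradiol (adjusted p = 0.0394 in limma) and 0.50 under vehicle (adjusted p = 0.161). The same subtraction gave MVD a call under estradiol (0.48, adjusted p = 0.0413 in limma). HSD17B7 was also called under vehicle, at 0.67 (adjusted p = 0.0496 in limma), against 0.69 (adjusted p = 0.0520 in limma) without subtraction. Its neighbours under vehicle lay at 0.03 in receptor cells and 0.02 in control cells, so its fold hardly changed. MVK (0.48, adjusted p = 0.0736) and FDFT1 (0.33, adjusted p = 0.0605) lost their calls under estradiol, and ELOVL6, still called under vehicle at -0.37, had a fold under estradiol of -0.0033. SC4MOL and ELOVL6, on chromosome 4, had neighbours at -0.20 and -0.18 under estradiol and -0.13 and -0.15 under vehicle in receptor cells. Among other probes of members, SC4MOL differed most: one gave 0.36 under estradiol and 0.43 under vehicle, another -0.07 and -0.08, beside 0.57 and 0.54 for the probe used. The second SQLE probe gave 0.39 and 0.19, and the second DHCR7 probe 0.54 and 0.40.

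In 4 further lists of lipid metabolism, 10 of 73 genes were called between receptor and control cells under estradiol (13.7%) and 9 under vehicle (12.3%), where 7.60% and 8.54% of all genes were; values are log2 folds. Of 15 further sterol and isoprenoid genes tested, 0 rose and 2 fell under each treatment, among them ERLIN2, a protein of the endoplasmic reticulum membrane that takes part in protein degradation there (-0.51 under estradiol and -0.51 under vehicle). Of these 15, 3 had a positive fold under estradiol and 5 under vehicle, with medians of -0.10 and -0.11, where the medians of the sterol arm were 0.51 and 0.33. Of 23 further fatty acid and glycerolipid genes, 2 rose and 2 fell under estradiol and 3 rose and 2 fell under vehicle. ME1, which makes NADPH for lipid synthesis, rose by 0.73 and 1.02, and AGPAT2, an acyltransferase of phospholipid and fat synthesis, had -0.94 and -0.66. PTPLA, a dehydratase of fatty acid elongation, had -0.76 and -0.60, HSD17B12, a reductase of the same cycle, rose by 0.52 under vehicle, and SLC25A1, the mitochondrial citrate carrier, rose by 0.47 under estradiol. FADS3, the fifth of the list by p, is named after its values were seen to complete the count under vehicle (0.63). Of 17 genes of sterol uptake, storage and efflux, NR1H2, the gene of the sterol sensor LXR beta, fell under both treatments (-0.71 and -0.79), and STARD5, a lipid carrier, rose under estradiol (0.66). Of 18 fatty acid oxidation genes, CPT1A, which admits fatty acids to mitochondria, fell under both (-0.75 and -0.85), ECI2, an enoyl-CoA isomerase, fell under estradiol (-0.56), and 0 rose. The median log2 folds of the last 3 lists were 0.01, -0.04 and -0.10 under estradiol and 0.13, -0.12 and -0.10 under vehicle, beside -0.01 for all genes.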

How the data were processed

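Expression was measured on Illumina BeadChips in 12 samples, 3 in each of 4 groups taken from the labels. One deposited file held the non-normalized bead intensity of each probe and array, and the deposited detection p-value beside it. The authors also deposited a normalized intensity table, made with lumi per the submitters' processing notes (version not given in the sources used here). Of 47322 probes, 47321 were complete. They were normalized here with neqc (limma 3.58.1, R 4.3.3), which takes the background from the detection p-values, adds an offset of 16, equalizes quantiles and takes log2. Array number and background limit the precision.

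Probes with a detection p under 0.05 on at least 3 arrays were kept (21476), and 1 probe a gene, the brightest, gave 15249 genes, with 32 of the 33 members. Group means were fitted over the 12 arrays together (8 residual and 4.62 prior degrees of freedom), and moderated two-sided tests were adjusted by Benjamini-Hochberg over all genes. The scripts were tested on simulated data. Symbols were matched to current names through the RefSeq gene table, which left 12341 probes with the file's own name. Python 3.11.15 with pandas 2.3.3, numpy 2.4.6 and matplotlib 3.10.9 made the figures.

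The members and the other lists were chosen with earlier results of these data known. Array values are given for every member called in a comparison of groups and for the 5 regulators, and other lists' genes are named where called, up to 4 a list by p, apart from genes not reported here. Array values of CYP51A1 and HSD17B7, called only between replicate numbers, were added after that result was seen.

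The pairing of arrays by replicate number was judged from each array's deviations about its group mean, over all genes. Arrays of the same number, estradiol against vehicle, correlated at 0.76, 0.39 and 0.67 in receptor cells, all over 0.1, so the numbers pair these arrays, and at 0.08, 0.03 and 0.11 in control cells, where they do not. Alternatives were the authors' normalized table, another offset, no background correction, other detection filters, the mean of a gene's probes, only the groups compared, the replicate block, subtraction of the running median of 51 neighbouring genes (12229 positioned genes), and leaving out arrays.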

Additional observations from a re-analysis of the deposited data

How the results depend on the processing

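Each called member kept its direction in every alternative run. The number of members called for receptor over control cells was 10 under estradiol and 8 under vehicle. It fell to 4 and 3 when the fit held only the groups compared, with 4.91% and 6.01% of all genes called. With no detection filter it was 7 and 6, with 3.39% and 3.68%. In the authors' normalized table it was 11 and 9, with 9.05% and 10.6%. With an offset of 50 it was 11 and 10, with 9.01% and 10.4%. With no background correction it was 11 and 9, with 9.02% and 10.5%. HSD17B7 and FDFT1 were called under vehicle in the authors' table, with that offset and with no background correction. With both receptor arrays numbered 2 left out the number of members fell to 2 and 2, with 3.95% and 4.18% of all genes. With those numbered 3 left out it was 12 and 10, with 15.0% and 15.6%. Both of these alternatives were chosen after seeing the data. With those numbered 1 left out, as planned, it was 9 and 10, with 11.8% and 13.0%. When each array was left out in turn, the count ran from 2 to 10 under estradiol and from 0 to 10 under vehicle. The sterol arm median of 0.51 under estradiol became 0.32 in the authors' normalized table, 0.39 with an offset of 50, 0.31 with no background correction and 0.37 with both receptor arrays numbered 1 left out. It ran from 0.37 to 0.53 when each array was left out. The sterol arm median of 0.33 under vehicle became 0.22 in the authors' table and 0.22 with no background correction. The fatty acid arm median of 0.12 under vehicle became 0.27 with both receptor arrays numbered 1 left out and ran from 0.053 to 0.27 when each array was left out. The F-test of replicate number in receptor cells called 12 members in the authors' table (30.3% of all genes) and 1 with no detection filter (6.01%), against 2 (18.5%). Under the replicate block across lines, which the numbers do not pair, 11 and 9 members were called. The block within lines was run only for estradiol over vehicle in each line and for the difference of these responses. It called 0 members in each, and the receptor over control calls were not tested under it. The chip as a block was not run, because the column names give no chip. SREBF2, CYP51A1 and ELOVL6 lie close to background, which limits their folds. The cause of each change was not tested.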
